A study of Mus musculus with 64 samples.

Results

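The genes described here are 9 secreted ADAMTS proteases, Adamts1, Adamts2, Adamts4, Adamts5, Adamts8, Adamts9, Adamts10, Adamts12 and Adamts15. They were taken by symbol from a listed set, and 9 of 9 were found among the 20637 genes of the deposited table. RNA was sequenced from mouse hearts of the outbred CD1 strain in 64 libraries, 4 for each of 16 groups. The groups cross 4 cell populations, 2 ages at surgery and 2 operations, and hearts were taken 3 days after surgery. Surgery was at postnatal day 1 (P1) or at postnatal day 56 (P56, males), and was either a myocardial infarction (MI), made in the adults by permanent coronary ligation, or a sham operation without it. Cardiomyocytes came from the lower Percoll layer without a sort, while CD90+/CD45-/CD31- fibroblasts, CD45+ leukocytes and CD31+/CD45- endothelial cells were sorted from the upper layer. No transgene or deleted gene is named for any group. Neonatal libraries come from pools of 6 ventricles stirred in enzyme for 30 to 40 minutes, whereas adult hearts were digested by perfusion for about 8 minutes, and only the adults are stated to be male. Age, sex makeup, pooling and digestion therefore cannot be told apart in any comparison of P56 with P1.

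ADAMTS proteases (a disintegrin and metalloproteinase with thrombospondin motifs) are secreted zinc enzymes that cut proteins of the extracellular matrix. Adamts1, Adamts4, Adamts5, Adamts8, Adamts9 and Adamts15 belong to the proteoglycanase group, whose best known substrates are versican and aggrecan, large proteoglycans that bind hyaluronan. Adamts2 removes the amino-terminal propeptide of fibrillar procollagens, Adamts10 is linked to fibrillin microfibrils, and Adamts12 can cut cartilage oligomeric matrix protein. Versican-rich matrix is abundant in the developing heart and returns in injured myocardium.

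Promoter sequences (250 bases before to 50 bases after the annotated start, RefSeq, GRCm38.p6) were matched for 4 of the 9 genes and are printed for these 4, all of which rose after adult MI in fibroblasts. Capitals mark matches on either strand to TATAAA (the TATA box), GGGCGG (the GC box) or TGACG (the core of a cAMP response element), and no match overlapped another in these 4 windows. The windows are chr16:85803064-85803363 on the minus strand for Adamts1, chr6:92943485-92943784 on the minus strand for Adamts9, chr11:50601835-50602134 on the plus strand for Adamts2 and chr15:11064523-11064822 on the plus strand for Adamts12.
Adamts1: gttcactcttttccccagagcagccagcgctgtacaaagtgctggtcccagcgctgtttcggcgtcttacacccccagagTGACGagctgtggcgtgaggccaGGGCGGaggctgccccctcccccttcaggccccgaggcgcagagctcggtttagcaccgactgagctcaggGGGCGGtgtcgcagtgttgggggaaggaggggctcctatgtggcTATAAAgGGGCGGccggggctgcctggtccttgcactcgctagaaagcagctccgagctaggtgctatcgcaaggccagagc
Adamts9: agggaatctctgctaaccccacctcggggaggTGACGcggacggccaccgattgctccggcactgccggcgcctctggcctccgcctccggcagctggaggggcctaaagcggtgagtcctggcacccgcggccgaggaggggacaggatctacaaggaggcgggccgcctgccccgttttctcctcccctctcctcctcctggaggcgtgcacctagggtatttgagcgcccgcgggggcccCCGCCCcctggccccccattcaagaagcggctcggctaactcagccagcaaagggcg
Adamts2: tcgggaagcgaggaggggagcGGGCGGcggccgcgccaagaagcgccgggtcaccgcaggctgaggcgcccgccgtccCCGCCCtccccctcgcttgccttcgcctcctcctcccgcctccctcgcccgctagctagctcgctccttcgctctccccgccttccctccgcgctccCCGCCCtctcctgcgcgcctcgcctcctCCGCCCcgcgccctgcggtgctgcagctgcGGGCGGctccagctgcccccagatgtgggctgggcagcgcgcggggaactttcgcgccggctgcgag
Adamts12: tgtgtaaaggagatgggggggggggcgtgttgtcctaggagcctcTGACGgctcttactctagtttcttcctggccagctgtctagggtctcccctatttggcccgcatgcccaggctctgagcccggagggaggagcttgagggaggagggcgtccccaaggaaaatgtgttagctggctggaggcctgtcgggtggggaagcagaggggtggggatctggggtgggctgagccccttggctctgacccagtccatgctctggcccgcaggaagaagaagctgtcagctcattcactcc
The Adamts1 window held 1 TATAAA, 32 bases before the start, with 3 GGGCGG and 1 TGACG. The Adamts9 window held 1 GGGCGG and 1 TGACG, and the Adamts2 window held 5 GGGCGG. The Adamts12 window held 1 TGACG. Over 32851 promoters of the same length, 13.6% held TATAAA, 35.7% GGGCGG and 20.8% TGACG. The AP-1 motif TGANTCA, searched on both strands as well, was in 7.81% of all promoters and in none of the 4 windows. A match describes letters only.

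In the deposited coordinates, which equal those of the GRCm38 annotation (GENCODE M21) for 7 of the 9 genes at both ends, 4 members form 2 neighbouring pairs. Adamts1 (chr16:85793827-85803113) and Adamts5 (chr16:85858170-85901125) lie 55.1 kb apart on the same strand. Adamts15 (chr9:30899155-30922452) and Adamts8 (chr9:30942562-30963838) lie 20.1 kb apart on opposite strands. No member shares exonic bases with another gene on its own strand. Adamts4 lies at chr1:171250421-171260637. Adamts9 (chr6:92772699-92943492) shares exonic bases with Gm15737 and A730049H05Rik on the opposite strand, and Gm15737 also moved with it in leukocytes, from 67.4 ± 12.2 in P1 sham to 11.4 ± 5.56 CPM in P1 MI (SD, n = 4). Adamts8 shares exonic bases with Gm29724 on the opposite strand. Whether reads were counted by strand was not found in the labels or notes, so reads of overlapping genes on opposite strands may not be told apart.

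Values are the deposited signal that the submitters call CPM, in which the reads of a gene are scaled by a factor for each library. That factor is not set by the recovered reads of the library alone, and 1 read was worth 0.0340 to 0.136 CPM. Whole reads could be recovered from these values, between 9587688 and 27542141 in a library, with a median of 20592608. A floor of 3 reads corresponds to 0.102 to 0.409 CPM and covers counting error only. Nothing in the labels says that the 4 libraries of a group came from separate animals or pools, so p-values measure the spread between libraries. In 7 libraries 18S ribosomal RNA took over 5% of the signal (7.07 to 26.1%). Summed CPM of 12 fibroblast markers was 30804 to 90602 in the fibroblast libraries and at most 7948 elsewhere, and 10 leukocyte markers summed to 1550 to 5888 in the CD45 libraries and at most 391 elsewhere. The 12 endothelial markers summed to 9690 to 14562 CPM in the CD31 libraries, and also to 4053 to 4852 in the P1 sham CD45 libraries and 2642 to 4123 in the P1 sham cardiomyocyte libraries. The 12 cardiomyocyte markers summed to at least 43540.5 CPM in the cardiomyocyte libraries, and to 74717 to 205385 in the P56 sham CD45 libraries. The leukocyte libraries therefore hold RNA of other cell types that differs between groups, and most of their results by gene are given apart.

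**Figure D1:**
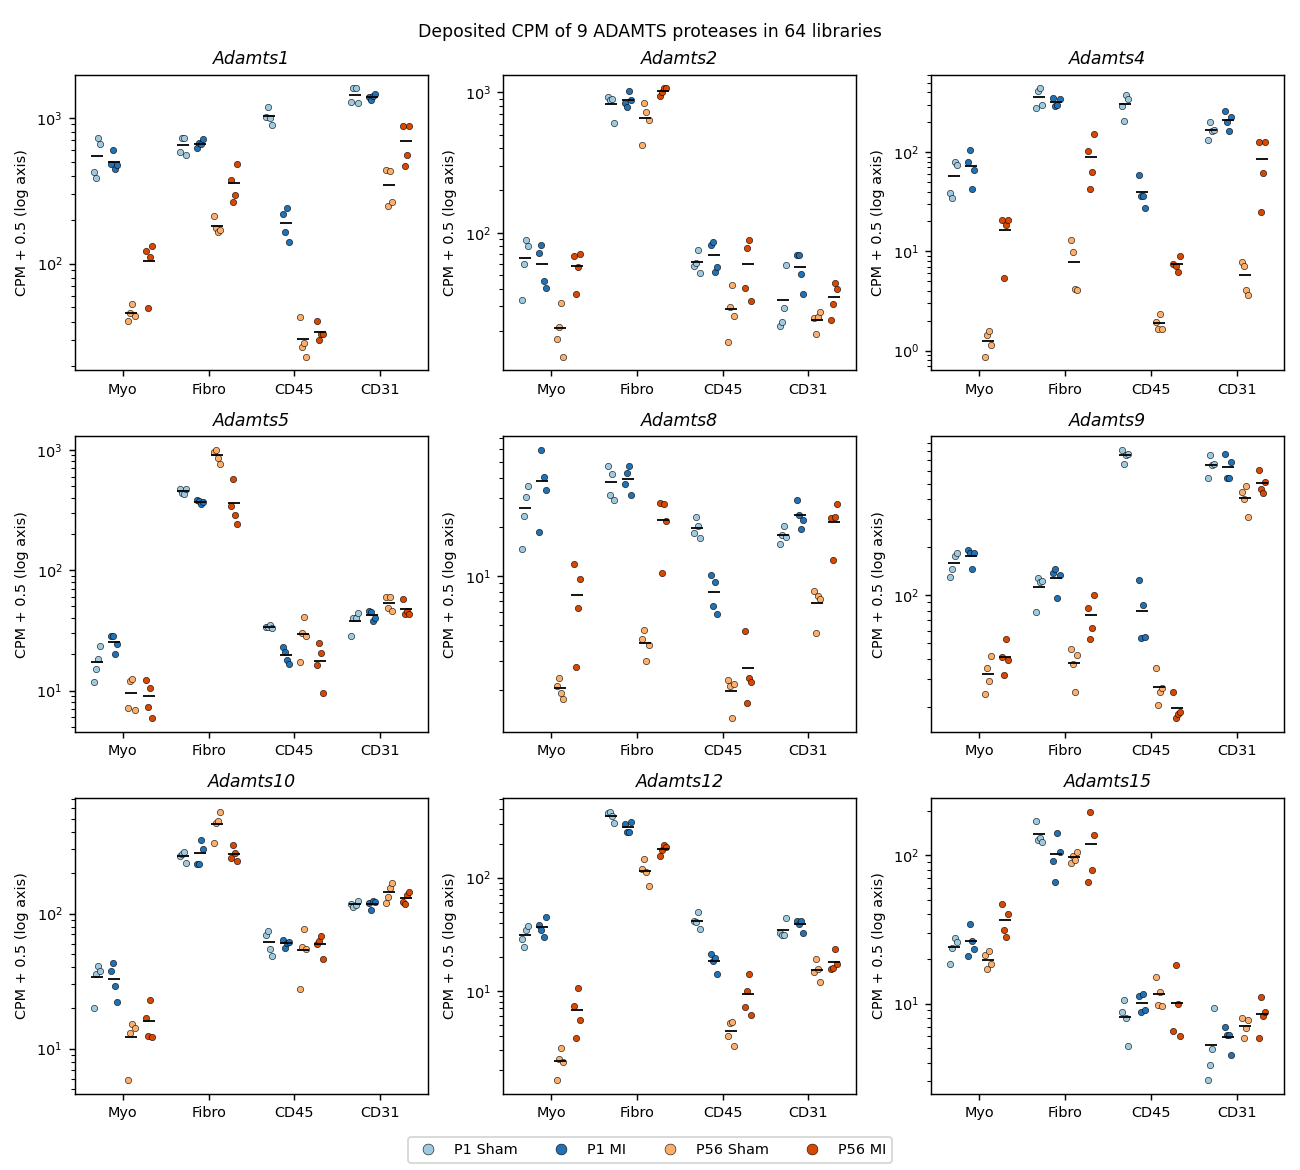
Deposited CPM plus 0.5 (log axis) of the 9 genes in 64 libraries, with 4 groups per population and a bar at each group mean. Adamts2, Adamts5, Adamts10, Adamts12 and Adamts15 sit highest in the fibroblast libraries, Adamts1 and Adamts9 in P1 endothelial and P1 sham leukocyte libraries, and the 4 P56 sham points of Adamts4 lie far below the P1 points in each population.

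The 9 genes divided by cell population. At both ages, 5 of 9 (Adamts2, Adamts5, Adamts10, Adamts12 and Adamts15) were higher in sham fibroblasts than in each of the other populations, by a log2 difference of at least 1 with adjusted p below 0.05 against each (limma on log2(CPM + 0.5), Benjamini-Hochberg). Over all 17618 genes tested, 6.44% met that rule for fibroblasts at P1 and 7.67% at P56. The smallest difference over the other populations at P56 was 4.55 on the log2 scale for Adamts2, 4.07 for Adamts5, 2.90 for Adamts12, 2.30 for Adamts15 and 1.67 for Adamts10. Adamts9 met the rule in P56 endothelial cells, where its smallest difference was 3.47, and 1 of 9 stands against 5.95% of all genes. Without P56 sham endothelial replicate 2 or 4 the count was 2. At P1 it did not, because the P1 sham leukocyte libraries held as much: 752 ± 63.5 CPM against 657 ± 88.3 CPM in endothelial cells (SD, n = 4). Those leukocyte libraries also held endothelial RNA, with the endothelial cadherin Cdh5 at 790 ± 54.5 CPM (SD, n = 4), and its part was not tested. Over P1 cardiomyocytes and fibroblasts, P1 endothelial cells were higher by 2.05 and 2.56 for Adamts9. For Adamts1 they were higher by 1.43 and 1.15, and by 0.48 over leukocytes. None of the 9 reached a log2 difference of 1 over each other population in cardiomyocytes or leukocytes at either age or in P1 endothelial cells, so the count there is 0 with or without adjustment in limma, and edgeR and DESeq2 on recovered reads also gave 0. The shares of all genes were 7.07% and 17.0% for cardiomyocytes at P1 and P56, 5.67% and 6.26% for leukocytes, and 2.90% for P1 endothelial cells.

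Adamts1 had the highest mean level per length of the 9 genes in each of the 8 P1 groups. Summed over the 9 genes, P1 sham fibroblasts had 552 ± 58.8 CPM per kb of the deposited gene length, of which Adamts1 gave 24.0%, Adamts2 20.5% and Adamts4 14.6% (SD, n = 4). P56 sham fibroblasts had 392 ± 37.6 CPM per kb, led by Adamts10 (28.6%), Adamts5 (28.5%) and Adamts2 (22.7%). After MI at P56 the sum was 409 ± 27.5 CPM per kb, led by Adamts2 (34.6%) and Adamts1 (17.7%). The sums of the P56 groups differed by less than their SDs, while the order of the members differed. In endothelial cells the sum was 462 ± 49.1 CPM per kb in P1 sham, 173 ± 28.7 in P56 sham and 276 ± 65.4 in P56 MI (SD, n = 4), and Adamts1 and Adamts9 ranked first and second in each. Cardiomyocytes had 180.3 ± 52.0 CPM per kb in P1 sham, 24.1 ± 3.52 in P56 sham and 51.7 ± 14.5 in P56 MI (SD, n = 4). In bulk RNA, fewer cells of a type and less RNA per cell cannot be told apart.

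**Figure D2:**
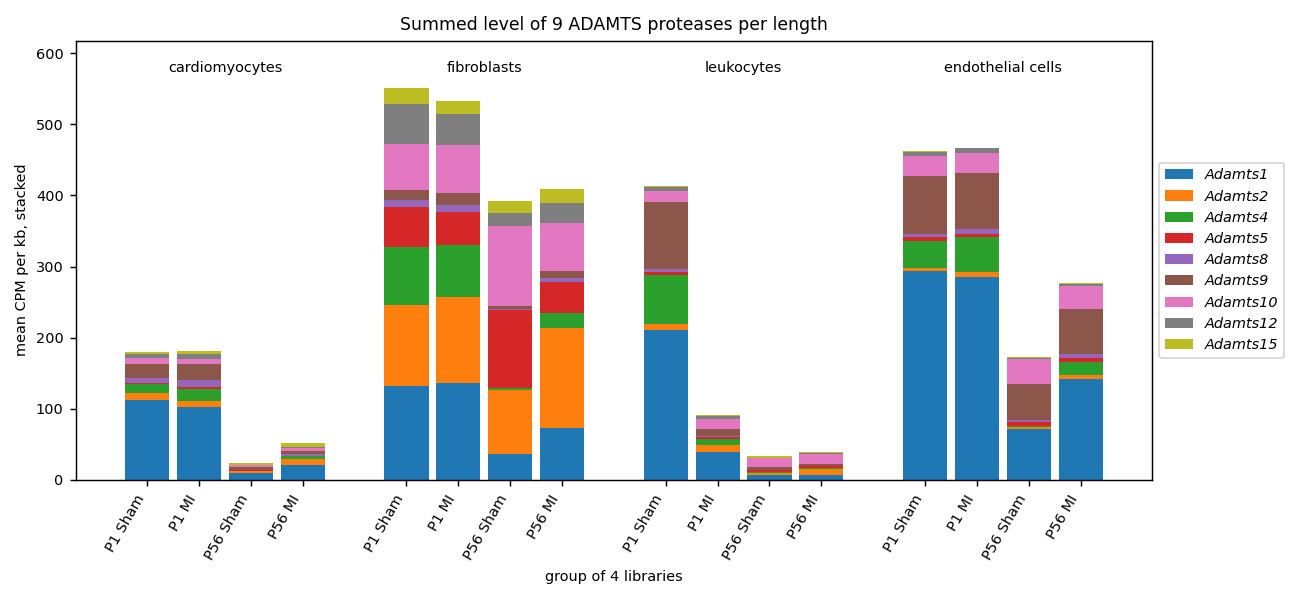
Mean CPM per kb of gene length for the 9 genes, stacked, in each group of 4 libraries. The fibroblast bars run from 392 (P56 sham) to 552 (P1 sham), and the blue Adamts1 share shrinks from P1 to P56 in each population.

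Between sham libraries of the 2 ages, most members were lower at P56. In cardiomyocytes 8 of 9 were lower, where 37.0% of 15461 genes were. In these unsorted libraries 10 of 12 fibroblast markers (median -2.38), 8 of 12 endothelial, 9 of 10 leukocyte and 7 of 7 epicardial markers were lower too, and their part in the result was not tested. In fibroblasts 5 of 9 were lower and 2 of 9 higher, against 32.2% and 34.8% of 15729 genes. In endothelial cells the split was also 5 lower and 2 higher, against 29.3% and 33.6% of 15706 genes. In leukocytes 6 of 9 were lower, against 34.5% of 16239 genes. In the same leukocyte libraries 12 of 12 endothelial markers were lower (median -2.77). There 11 of 12 cardiomyocyte markers were higher, against 32.5% of all genes, and the part of these markers in the result was not tested. The median log2 difference of the 9 genes was -0.69 in endothelial cells, -1.60 in fibroblasts, -2.32 in cardiomyocytes and -3.25 in leukocytes, beside medians over all genes tested of 0.05, 0.03, -0.09 and -0.01. The age comparison and the adult MI comparison share the P56 sham libraries.

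After adult MI more members rose than fell. In fibroblasts 6 of 9 rose and 2 of 9 fell, where 24.8% and 25.2% of all genes did. In cardiomyocytes 6 of 9 rose, against 8.66% of all genes. Endothelial cells had 3 of 9 higher, against 12.5%. Leukocytes had 3 of 9 higher, a share near the 30.7% of all genes, and 1 of 9 lower, against 28.8%. Median-of-ratios scaling moved the median of all genes for adult MI in cardiomyocytes from 0.08 to -0.02 on the log2 scale and the split of calls from 1339 higher of 1498 to 1030 higher of 1347, while 6 of 9 members stayed called.

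After MI at P1, 0 of 9 members were called by limma in fibroblasts, cardiomyocytes or endothelial cells, and edgeR and DESeq2 also called 0 in each. At an unadjusted p below 0.05 there was 1 member in each of them: Adamts12 in fibroblasts, Adamts5 in cardiomyocytes and Adamts2 in endothelial cells. Few genes moved there at all: 2.37% of all genes were called in either direction in fibroblasts, 0.343% in cardiomyocytes and 0.216% in endothelial cells. Leaving out P1 sham endothelial replicate 4 made Adamts2 a call there, at 1.15 with adjusted p = 0.024. In P1 leukocytes 6 of 9 fell, against 22.6% of all genes.

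The difference between the MI changes of the 2 ages, tested as an interaction, was called for 6 of 9 members in fibroblasts, 4 higher and 2 lower at P56, against 16.2% and 15.5% of all genes. It was higher for 1 of 9 in cardiomyocytes (1.69% of all genes), 2 of 9 in endothelial cells (3.39%) and 5 of 9 in leukocytes (23.7%). In cardiomyocytes leaving out 1 library gave 1 to 4 calls, the most without P56 MI replicate 2, and 2 without P1 sham replicate 1 or P56 sham replicate 3 and 3 without P56 MI replicate 3.

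**Figure D3:**
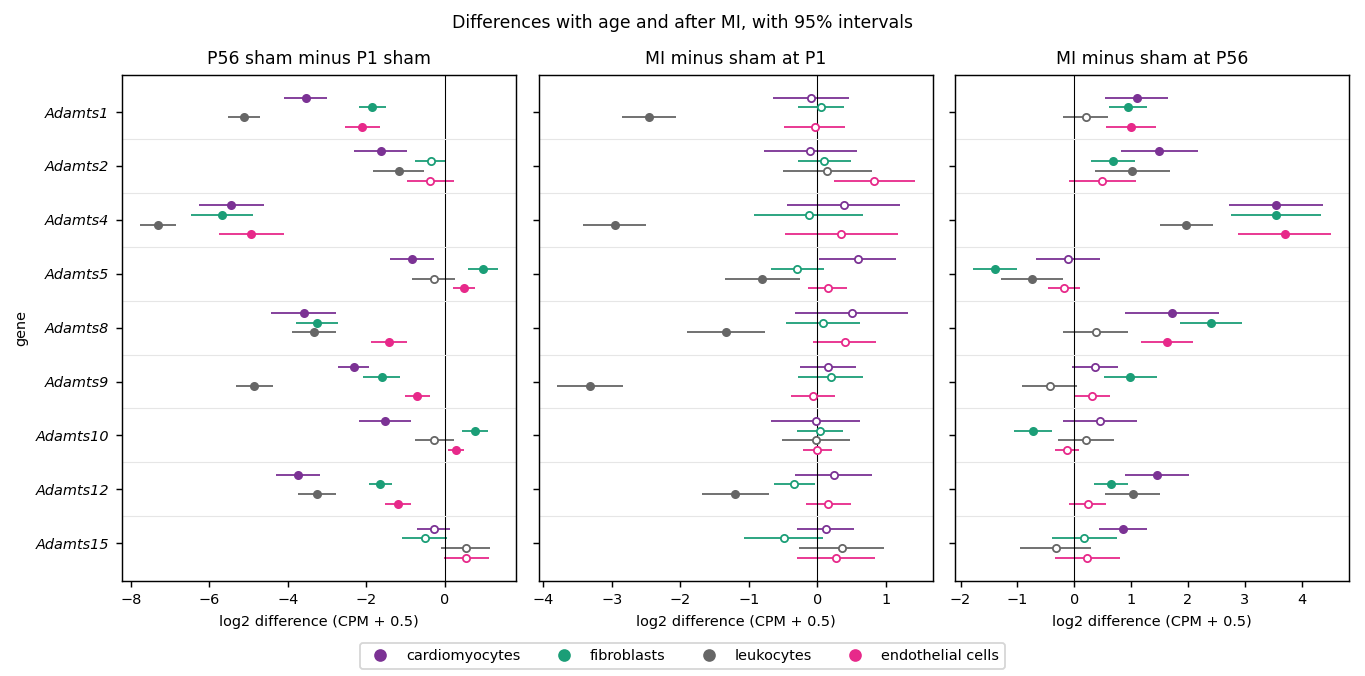
Log2 differences on CPM + 0.5 with 95% limma intervals for the 9 genes in 4 populations, with filled points where adjusted p was below 0.05. Adamts4 shows the largest falls with age (-7.30 in leukocytes) and rises of 3.55 to 3.70 after adult MI outside leukocytes, and the middle panel has filled points only for leukocytes. In leukocyte libraries 12 of 12 endothelial markers were lower with age too.

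Adamts4, an aggrecanase that also cuts versican, had the widest range. Fibroblast libraries held 274, 412, 442 and 297 CPM in P1 sham and 12.6, 9.39, 3.68 and 3.56 CPM in P56 sham. All P1 values were above all P56 values, and the fall was 5.67 on the log2 scale (SE 0.38, adjusted p = 1.8e-09). After MI at P56 the libraries held 103, 41.7, 62.0 and 152 CPM, all above the sham values, a rise of 3.55 (SE 0.38, adjusted p = 1.55e-06). After MI at P1 they held 354, 291, 297 and 342 CPM, within the range of P1 sham. The MI change was 3.68 larger at P56 (adjusted p = 0.000114). Even after adult MI the mean, 89.6 ± 48.7 CPM, stayed below the 356 ± 83.0 CPM of P1 sham (SD, n = 4), a comparison of levels with no test.

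Adamts4 did the same in endothelial cells and cardiomyocytes. Endothelial libraries held 7.40, 6.69, 3.62 and 3.16 CPM in P56 sham and 125, 24.6, 61.0 and 127 CPM after adult MI, with no overlap. The rise was 3.70 (SE 0.39, adjusted p = 2.14e-05), after a fall with age of 4.92 (adjusted p = 1.52e-08). Cardiomyocyte libraries held 0.372, 0.944, 1.07 and 0.631 CPM in P56 sham, as few as 3 reads, and 20.0, 4.92, 17.9 and 20.2 CPM after adult MI. That rise was 3.55 (SE 0.40, adjusted p = 2.07e-05), and P56 MI replicate 2 stood well under the others. The MI change was larger at P56 than at P1 by 3.35 in endothelial cells (adjusted p = 0.00448) and by 3.16 in cardiomyocytes (adjusted p = 0.00517).

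Adamts1, the founding member of the family and a versican-cleaving enzyme, followed the same course on a higher base. P1 sham endothelial libraries held 1291, 1602, 1591 and 1261 CPM and P56 sham libraries 439, 250, 430 and 264 CPM, without overlap. After adult MI they held 873, 464, 555 and 883 CPM, above all sham values, a rise of 1.00 (SE 0.21, adjusted p = 0.00329). In fibroblasts the mean went from 647 ± 92.0 at P1 to 180.0 ± 22.0 at P56 in sham, and to 355 ± 98.3 CPM after adult MI (SD, n = 4). The fibroblast rise was 0.94 (adjusted p = 0.000148), and it was 0.89 larger than the change at P1 (adjusted p = 0.00712). In cardiomyocytes Adamts1 fell by 3.55 with age, from 550.4 ± 171 to 45.2 ± 5.01 CPM (SD, n = 4; adjusted p = 1.36e-09). Its adult rise there was 1.10 (adjusted p = 0.011) with overlapping groups, since P56 MI replicate 2 held 49.2 CPM, and without P56 MI replicate 4 it was 0.95 with adjusted p = 0.0503. The endothelial difference between ages missed the threshold at 1.03 (adjusted p = 0.0521), and it passed without P1 sham replicate 4, P56 sham replicate 1 or 3 or P56 MI replicate 2 (adjusted p 0.0105 to 0.0496) and by DESeq2 (adjusted p = 0.0119).

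Adamts8, a proteoglycanase of low abundance here, was at most 58.6 CPM in any library. Fibroblasts held 3.62, 4.17, 2.53 and 3.26 CPM in P56 sham and 27.5, 9.92, 26.9 and 21.3 CPM in P56 MI. These do not overlap, and the rise was 2.41 (SE 0.26, adjusted p = 1.75e-06), 2.32 more than at P1 (adjusted p = 0.000234). The adult rise was 1.63 in endothelial cells (adjusted p = 0.000105) and 1.71 in cardiomyocytes (adjusted p = 0.00833). With age it fell by 3.25 in fibroblasts, 3.59 in cardiomyocytes and 1.41 in endothelial cells (adjusted p at most 2.69e-05). The endothelial difference between ages, 1.23 (adjusted p = 0.0279), lost its call without P1 sham replicate 2 or 3, P1 MI replicate 3 or P56 MI replicate 1, 3 or 4, where adjusted p was 0.0523 to 0.0656.

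Adamts9, a conserved versicanase, was higher in P56 sham endothelial cells than in each other population, by at least 3.47 on the log2 scale. So were Adamts1, by at least 0.90, and Adamts8, by at least 0.79 (limma, adjusted p at most 0.00338). P56 sham endothelial libraries held 409 ± 75.9 CPM of Adamts9, against 36.9 ± 9.26 in fibroblasts, 31.7 ± 7.58 in cardiomyocytes and 26.1 ± 5.98 in leukocytes (SD, n = 4). Its fall with age was 0.69 in endothelial cells (adjusted p = 0.000816), 1.60 in fibroblasts (adjusted p = 8.43e-06) and 2.32 in cardiomyocytes (adjusted p = 6.07e-09). After adult MI it rose in fibroblasts, from 45.4, 36.5, 24.2 and 41.8 to 82.6, 52.5, 61.5 and 99.9 CPM, a change of 0.99 (adjusted p = 0.0016) without overlap. In endothelial cells it went from 409 to 504 CPM (0.31, adjusted p = 0.162). The fibroblast difference between ages was 0.79 (adjusted p = 0.0645), and it passed without P1 sham replicate 1, P56 sham replicate 1 or P56 MI replicate 2 (adjusted p 0.0233 to 0.0466) and by DESeq2 (0.84, adjusted p = 0.0443).

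Adamts5, the other main aggrecanase, went the opposite way in fibroblasts. P1 sham libraries held 470, 441, 426 and 475 CPM and P56 sham libraries 965, 999.8, 854 and 767 CPM, a rise with age of 0.98 (SE 0.18, adjusted p = 0.000178). After adult MI the values were 340, 567, 288 and 242 CPM, all below sham, a fall of 1.39 (SE 0.18, adjusted p = 1.52e-05). The P1 MI libraries held 383, 374, 355 and 367 CPM, also all below sham, but that difference was -0.29 (adjusted p = 0.516). The fall was 1.10 larger at P56 (adjusted p = 0.00494). Adamts5 and its neighbour Adamts1 thus moved in opposite directions in fibroblasts, with age and after adult MI. In endothelial cells Adamts5 rose by 0.49 with age (adjusted p = 0.00427), and in cardiomyocytes it fell by 0.84 with overlapping groups (adjusted p = 0.00958).

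Adamts15 is a versicanase-group enzyme. Fibroblasts held 138 ± 22.0 CPM in P1 sham, 101 ± 31.5 in P1 MI, 96.3 ± 7.21 in P56 sham and 120 ± 60.2 in P56 MI (SD, n = 4). None of the fibroblast comparisons was called: the age difference was -0.51 (95% interval -1.08 to 0.07) and the adult MI difference 0.18 (95% interval -0.40 to 0.75). In cardiomyocytes it rose after adult MI, from 20.6, 16.51, 22.2 and 17.9 to 46.2, 31.0, 27.6 and 39.5 CPM, by 0.87 (SE 0.20, adjusted p = 0.00879). Its genomic neighbour Adamts8 rose there too, and in fibroblasts Adamts8 rose while Adamts15 was not called. In endothelial cells its age difference was 0.55 (adjusted p = 0.0867), and 0.87 (adjusted p = 0.00235) without P1 sham replicate 4.

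Adamts2, the procollagen N-proteinase, was the most abundant member per length in P56 MI fibroblasts. It held 927, 876, 898 and 600 CPM in P1 sham, 423, 837, 723 and 633 CPM in P56 sham and 948, 1011, 1069 and 1075 CPM in P56 MI. The P56 MI values were all above P56 sham, a rise of 0.69 (SE 0.18, adjusted p = 0.00518). The age difference was -0.36 (adjusted p = 0.0942) and became a call without P1 sham replicate 4 (-0.50, adjusted p = 0.022), the library with 26.1% 18S, or without P56 sham replicate 2 (-0.49, adjusted p = 0.0281). With all libraries it was also called under median-of-ratios scaling (adjusted p = 0.0407), by edgeR (adjusted p = 0.0353) and by DESeq2 (adjusted p = 0.04). The difference between ages was 0.58 (adjusted p = 0.0953), a call without P1 sham replicate 4 or P56 sham replicate 2 (adjusted p = 0.0345 and 0.0414) and by DESeq2 (adjusted p = 0.0392). In cardiomyocytes Adamts2 fell by 1.63 with age (adjusted p = 0.000208) and rose by 1.498 after adult MI (adjusted p = 0.00522), from 20.5 ± 7.93 to 57.6 ± 15.6 CPM (SD, n = 4). The 12 fibroblast markers went from a median sum of 565 to 2762 CPM in the same libraries, and their part in the rise was not tested.

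Adamts10, a fibrillin-associated member, resembled Adamts5 in fibroblasts. It held 267, 278, 283 and 237 CPM in P1 sham, 330, 469, 486 and 567 CPM in P56 sham and 256, 320, 280 and 245 CPM in P56 MI. The rise with age was 0.77 (SE 0.16, adjusted p = 0.000404) and the fall after adult MI 0.73 (SE 0.16, adjusted p = 0.00128), neither with overlap. The MI change at P56 minus that at P1 was -0.78 (adjusted p = 0.0158). In endothelial cells its rise with age, 0.28 (adjusted p = 0.0183), had overlapping groups and was lost without P56 sham replicate 3 or 4 (adjusted p = 0.0573 and 0.076). In cardiomyocytes it fell by 1.52 with age (adjusted p = 0.000275).

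Adamts12 fell with age in each population. Fibroblasts held 374, 382, 348 and 301 CPM in P1 sham, 118, 146, 111 and 83.0 CPM in P56 sham and 156, 175, 193 and 185 CPM in P56 MI. The fall with age was 1.64 (SE 0.14, adjusted p = 3.62e-08) and the adult MI rise 0.65 (SE 0.14, adjusted p = 0.00117), both without overlap. At P1 the MI difference was -0.33 (adjusted p = 0.276), and the difference between ages was 0.98 (adjusted p = 0.00172). In cardiomyocytes it fell by 3.74 with age and rose by 1.45 after adult MI (adjusted p = 0.00155), from 1.89 ± 0.618 to 6.31 ± 2.89 CPM (SD, n = 4).

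**Figure D4:**
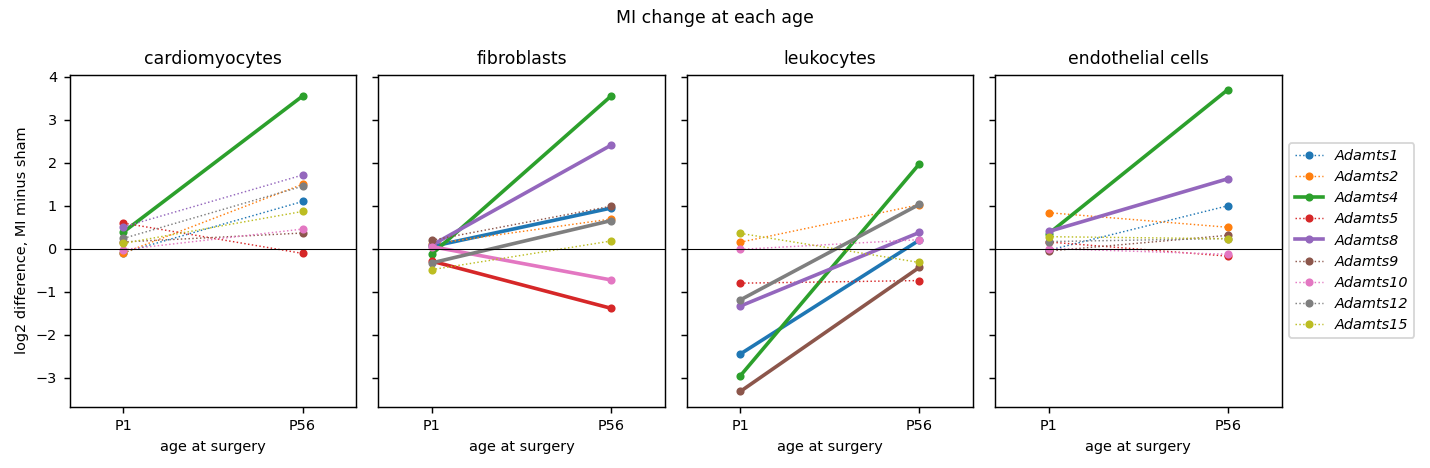
Log2 difference of MI against sham at P1 and P56 for the 9 genes in each population, with thick solid lines where the difference between ages had adjusted p below 0.05. Adamts4 has a thick line in each panel, and in fibroblasts Adamts5 (-1.10) and Adamts10 (-0.78) slope down while Adamts1, Adamts4, Adamts8 and Adamts12 slope up.

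Other transcripts moved beside these members, and their part in the results was not tested. Of 15 immediate early and stress genes, which respond to injury and also to cell isolation, 13 were lower at P56 in fibroblast and in endothelial sham libraries and 14 in cardiomyocytes, where 1 was higher. Of all genes 32.2%, 29.3% and 37.0% were lower there in turn, and 33.3% were higher in cardiomyocytes. After adult MI, 11 of the 15 were higher in fibroblasts, 10 in cardiomyocytes and 8 in endothelial cells, where 1 was lower. Of all genes 24.8%, 8.66% and 12.5% were higher there in turn, and 7.88% were lower in endothelial cells. The summed level of the 15 genes in fibroblasts was 5894 to 7045 CPM in P1 sham, 498 to 1001 in P56 sham and 1539 to 3175 in P56 MI. Atf3, a stress-induced transcription factor, had 293 ± 59.8, 5.84 ± 1.88 and 43.5 ± 22.3 CPM in these groups (SD, n = 4). In fibroblasts the cardiomyocyte marker sum went from 2809 to 5941 CPM in P56 sham to 242 to 1042 in P56 MI, and the epicardial marker sum from 93.6 to 136 to 279 to 583 CPM. In endothelial libraries the fibroblast marker sum had a median of 1175 CPM in P56 sham and 2042 in P56 MI, and the leukocyte marker sum 22.7 and 90.3 CPM. In cardiomyocyte libraries the leukocyte marker sum had medians of 30.9 and 215 CPM. None of these markers was at 0 in all libraries of a group.

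In leukocyte libraries after MI at P1, 6 of 9 members fell, and endothelial transcripts fell in the same libraries. P1 sham libraries held 1019, 1189, 998.7 and 897 CPM of Adamts1 and P1 MI libraries 219, 165, 238 and 140 CPM, a fall of 2.45 (SE 0.19, adjusted p = 1.03e-07). Adamts9 fell by 3.32, from 816, 664, 760 and 768 to 124, 53.2, 86.3 and 53.8 CPM (adjusted p = 3.54e-08). Adamts4 fell by 2.96 (adjusted p = 7.53e-08), Adamts8 by 1.34 (adjusted p = 0.000817), Adamts12 by 1.19 (adjusted p = 0.000557) and Adamts5 by 0.80 (adjusted p = 0.0187). For these 6 genes no P1 MI value overlapped P1 sham. Of all genes 22.6% were called lower here, and the share of all genes without overlap was not counted. Adamts2 (61.0 and 68.6 CPM in sham and MI), Adamts10 (61.2 and 59.7 CPM) and Adamts15 (7.62 and 9.66 CPM) were not called. In the same libraries 12 of 12 endothelial markers were lower and their median sum went from 4334 to 763 CPM, with Cdh5, the endothelial cadherin, at 789.99 ± 54.5 and 106 ± 39.2 CPM (SD, n = 4). The leukocyte markers were higher in 10 of 10 cases, and the mural cell markers lower in 8 of 10. The members' fall in leukocytes themselves and the loss of endothelial RNA cannot be told apart. Without P1 MI replicate 4 the Adamts5 call was lost (-0.72, adjusted p = 0.0555).

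Summed over the 9 genes, leukocyte libraries held 413 ± 15.1 CPM per kb in P1 sham, 33.0 ± 5.93 in P56 sham and 39.0 ± 7.04 in P56 MI (SD, n = 4). Adamts10 led both adult sums, at 53.5 ± 20.3 CPM in P56 sham and 58.7 ± 9.63 in P56 MI (SD, n = 4). Adamts1 was 29.8 ± 8.74 CPM in P56 sham and 33.6 ± 4.38 in P56 MI (SD, n = 4), a difference of 0.20 (adjusted p = 0.375). Adamts4 rose from 1.45, 1.14, 1.82 and 1.16 to 7.00, 6.55, 5.76 and 8.42 CPM, by 1.98 (SE 0.22, adjusted p = 2.35e-06). Adamts12 rose by 1.03 (adjusted p = 0.00111) and Adamts2 by 1.02 (adjusted p = 0.00945), Adamts2 with overlapping groups. Adamts5 fell by 0.74 (adjusted p = 0.0212), a call lost without P56 sham replicate 3 (-0.56, adjusted p = 0.0787), without P56 MI replicate 4 (-0.47, adjusted p = 0.0833) or without the libraries over 5% 18S (-0.73, adjusted p = 0.0504). Beside these, the cardiomyocyte marker sum went from a median of 90173 to 11549 CPM and the endothelial sum from 568 to 250 CPM, with 10 of 12 endothelial markers lower, and their part was not tested. Adamts15 (-0.32, adjusted p = 0.363) became a call without P56 MI replicate 2 (-0.65, adjusted p = 0.0291), and Adamts9 (-0.43, adjusted p = 0.111) without P1 MI replicate 1 (adjusted p = 0.047).

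**Figure D5:**
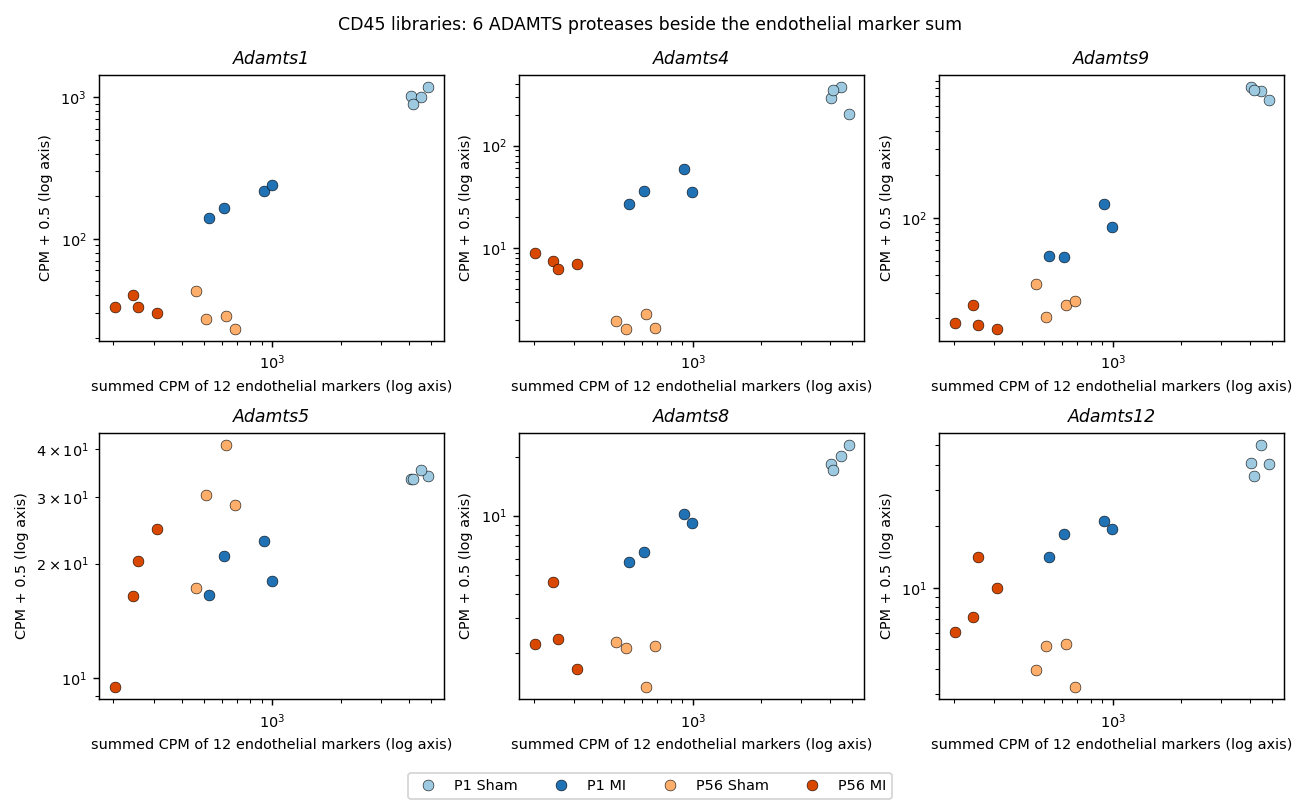
CPM plus 0.5 of 6 members against the summed CPM of 12 endothelial markers in the 16 leukocyte libraries (log axes), coloured by group. The 4 P1 sham libraries lie at 4053 to 4852 CPM of endothelial markers, and for each plotted member except Adamts5 they also lie above all other libraries.

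The counts of pathway genes in fibroblasts below stand against 32.2% of all genes lower and 34.8% higher with age, and 24.8% higher and 25.2% lower after adult MI. Of 19 substrate genes tested there, 11 were lower and 3 higher at P56, and after adult MI 14 were higher and 3 lower (median 0.87, beside -0.03 over all genes). After MI at P1 limma called 0 of 19, where 2.37% of all genes were called. At an unadjusted p under 0.05 limma had 6 of the 19, and on recovered reads edgeR called 0 and DESeq2 1. Fn1, the fibronectin gene, went from 402 ± 75.1 to 3310.3 ± 1158 CPM (SD, n = 4), a rise of 3.00 (adjusted p = 3.3e-08). Col1a1, whose procollagen is an Adamts2 substrate, went from 1516 ± 540.2 to 7738 ± 2445 CPM (SD, n = 4), a rise of 2.36 (adjusted p = 7.02e-06). Tfpi2 rose by 1.83 (adjusted p = 1.46e-06). Versican itself, Vcan, rose in endothelial cells from 25.8 ± 3.18 to 74.9 ± 24.8 CPM (SD, n = 4), by 1.47 (adjusted p = 0.000314). In cardiomyocytes 17 of 18 substrates were lower at P56, against 37.0% of all genes, and 11 higher after adult MI, against 8.66%.

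Of 7 hyaluronan and link protein genes in fibroblasts, 6 were lower and 1 higher at P56 (all genes 32.2% and 34.8%), and 5 were higher and 1 lower after adult MI (24.8% and 25.2%). Cd44, the hyaluronan receptor, rose from 18.5 ± 4.31 to 98.8 ± 6.78 CPM (SD, n = 4; 2.41, adjusted p = 7.02e-09). Has1, a hyaluronan synthase, rose from 6.42 ± 1.17 to 48.7 ± 31.3 CPM (SD, n = 4; 2.65, adjusted p = 1.47e-05), and Tnfaip6, which modifies hyaluronan, by 1.32 (adjusted p = 1.3e-05).

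Among 9 inhibitor, clearance and activation genes tested in fibroblasts, 6 were higher at P56 (34.8% of all genes). After adult MI 2 were higher, a share near the 24.8% of all genes, and 5 lower (25.2%). Timp3, the tissue inhibitor best known for blocking ADAMTS enzymes, went from 189 ± 27.2 to 474 ± 110 CPM with age (SD, n = 4; 1.31, adjusted p = 3e-05). Lrp1, a receptor that takes up several of these enzymes, rose by 1.87 with age (adjusted p = 2.34e-06). Timp1 rose from 13.0 ± 5.50 to 600 ± 237 CPM after adult MI (SD, n = 4; 5.44, adjusted p = 5.99e-09). Timp4 fell by 1.79 (adjusted p = 5.75e-06) and Pcsk6, a propeptide convertase, by 1.87 (adjusted p = 8.75e-05).

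Procollagen processing genes rose in 7 of 9 cases and fell in 1 after adult MI in fibroblasts, against 24.8% and 25.2% of all genes. Plod2, a lysyl hydroxylase, rose by 1.03 (adjusted p = 3.17e-06), Tll1 by 2.26 (adjusted p = 5.45e-06) and Mmp14, a membrane metalloproteinase, by 1.01 (adjusted p = 0.000138). With age Pcolce2, a procollagen C-proteinase enhancer, went from 15.6 ± 1.303 to 278 ± 55.7 CPM (SD, n = 4; 4.09, adjusted p = 2.4e-12).

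Of the other ADAMTS proteases, 9 of 10 listed were in the table and 8 were tested in fibroblasts. With age 6 were lower and 1 higher (32.2% and 34.8% of all genes), and after adult MI 4 were higher and 1 lower (24.8% and 25.2%). Adamts6 rose from 14.6 ± 3.91 to 49.8 ± 11.4 CPM after adult MI (SD, n = 4; 1.74, adjusted p = 1.97e-05). Adamts16 was at 0.0323 ± 0.0646 CPM in P56 sham, under the floor, and at 5.40 ± 2.13 CPM in P56 MI (SD, n = 4). Adamts7 fell from 85.3 ± 10.7 to 26.9 ± 3.09 CPM with age (SD, n = 4; adjusted p = 3.35e-08). Of 7 ADAMTS-like proteins, which lack the protease domain, 4 were higher and 2 lower with age in fibroblasts (34.8% and 32.2% of all genes), and 1 was higher and 3 lower after adult MI (24.8% and 25.2%), counts too small to set apart from those shares. Adamtsl2 rose with age from 35.8 ± 3.00 to 354 ± 133 CPM (SD, n = 4; 3.21, adjusted p = 4.58e-09). It was also raised by MI at P1, to 145 ± 23.5 CPM (SD, n = 4; 1.99, adjusted p = 0.000226). Thsd4 fell with age from 332 ± 62.5 to 10.99 ± 4.67 CPM (SD, n = 4; adjusted p = 8.83e-11).

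The gene whose 16 group means of log2(CPM + 0.5) were most like each member's was named among 12715 genes of at least 5 CPM in a group. The Pearson correlations, over groups that share populations and libraries, describe likeness only. Adamts4 was closest to Sele, the endothelial adhesion molecule E-selectin (0.96), and Adamts8 to Itgb1 (0.93), with Sele second (0.93). Adamts1 was closest to Mpzl1 (0.97), Adamts9 to Stc1 (0.96), Adamts2 to Srpx2 (0.99), Adamts12 to Ubtd2 (0.99), Adamts10 to Invs (0.98) and Adamts15 to Rab34 (0.97). Adamts5 was closest to Sh3d19 (0.99), and Adamtsl3, an ADAMTS-like protein, came second (0.98). Among the members themselves, Adamts4 and Adamts8 were the most alike pair (0.92), and Adamts5 and Adamts10 followed (0.92).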

How the data were processed

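RNA of 64 libraries was measured by stranded total RNA sequencing of 50-base single reads after ribosomal RNA removal, per the labels' protocols. Trimmomatic, STAR, HTSeq and edgeR appear in the submitters' processing notes with no version. The same notes list 3 builds (GRCh38, GRCm38, mm10) with no role. The authors deposited 1 table of a signal they call CPM, for 20637 genes, with a gene length in bases. Since the signal in each library is a whole multiple of 1 read (within 0.01), reads were recovered for count tests.

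The members and gene lists were chosen with earlier results of these data known. Genes at or above 1 CPM in at least 4 libraries were tested with limma 3.58.1 (R 4.3.3) with a mean-variance trend on log2(CPM + 0.5), 16 libraries of a population per fit, or 32 sham libraries for the comparison of populations. Fold changes are on that scale and understate low genes. P-values were adjusted over all genes of a fit (Benjamini-Hochberg, threshold 0.05). All members are described, and at most 3 called genes with the smallest adjusted p per list and comparison are named. The method was tested on simulated data. Alternatives were pseudocounts of 0.1 and 1, no filter or one of 5 CPM, median-of-ratios scaling, a replicate block, count tests of the recovered reads by DESeq2 1.42.0 and by edgeR 4.0.16, libraries over 5% 18S left out, and each library left out.

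Replicate numbers did not pair sham with MI (0 of 8 pairs of groups with every correlation of deviations over 0.1) or the ages (0 of 4). Populations deviated together in 12 of 24 pairs of groups, all of them P56 groups except P1 MI leukocytes with P1 MI endothelial cells. Between P56 MI fibroblasts and endothelial cells, for example, deviations of same-numbered libraries correlated at 0.339 to 0.451. The adult results of the populations are therefore not separate repeats. Of 96 pairs of libraries within groups, 0 held identical values, and the lowest chi-square per gene was 7.40, so none was merged. An overlap of exonic bases with 1 further gene is not reported here.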

Additional observations from a re-analysis of the deposited data

Results flagged for a closer look

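Of 144 groups of 4 libraries, 5 held a library whose gap to the nearest other exceeded Dixon's 95% limit for 4 values, where chance gives about 1 in 20. Adamts2 was 600.4 CPM in P1 sham fibroblast replicate 4 and 876 to 927 CPM in the others. Adamts9 was 77.9 CPM in P1 sham fibroblast replicate 1 and 121 to 129 CPM in the others. Adamts4 was 4.92 CPM in P56 MI cardiomyocyte replicate 2 and 17.9 to 20.2 CPM in the others. Adamts5 was 57.2 CPM in P56 MI endothelial replicate 1 and 42.4 to 44.9 CPM in the others. Adamts12 was 43.4 CPM in P1 sham endothelial replicate 4 and 30.4 to 32.04 CPM in the others.

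The MI change differed between P56 and P1 by an interaction test in 14 of 36 cases (limma, adjusted p below 0.05). Over all genes the same test called 45.2% in leukocytes, 31.7% in fibroblasts, 5.41% in endothelial cells and 1.75% in cardiomyocytes. On the log2 scale, P56 minus P1, Adamts4 differed by 4.93 in leukocytes, 3.68 in fibroblasts, 3.35 in endothelial cells and 3.16 in cardiomyocytes. Adamts8 differed by 2.32 in fibroblasts, 1.23 in endothelial cells and 1.71 in leukocytes, and Adamts1 by 0.89 in fibroblasts and 2.65 in leukocytes. Adamts12 differed by 0.98 in fibroblasts and 2.23 in leukocytes, and Adamts9 by 2.89 in leukocytes. Adamts5 and Adamts10 differed in fibroblasts by -1.10 and -0.78. The 5 leukocyte differences stand beside endothelial marker sums that differ between the groups, and the part of those in them was not tested.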

How the results depend on the processing

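No result changed sign under the alternatives run, and of the counts of called members under settings other than leaving out 1 library, 219 stayed within 1.5 times the reported count and 1 did not: DESeq2 called the difference between ages in cardiomyocytes for 3 members instead of 1 (the cause was not tested). Leaving out 1 library at a time gave 1 to 4 calls for that count, 0 to 1 in endothelial cells after MI at P1, 1 to 3 for the endothelial difference between ages, and 1 to 2 for members higher in P56 endothelial cells. The replicate block changed 1 member call, Adamts9 in adult leukocytes after MI (-0.43, adjusted p = 0.0219, limma), and left the 8 called in fibroblasts after adult MI. A block of age with replicate number, chosen after seeing the data, left 5, 5 and 1 members higher in P1 fibroblasts, P56 fibroblasts and P56 endothelial cells. Counts over all genes after MI at P1 depended most on the setting: in cardiomyocytes 53, against 301 by DESeq2, 21 by edgeR, 27 with the replicate block, 16 and 95 with pseudocounts of 0.1 and 1, 168 without a filter, 15 at 5 CPM and 129 without the libraries over 5% 18S. In endothelial cells the count was 34, against 334 by DESeq2, 1 with the block, 22 and 62 with the pseudocounts. In fibroblasts it was 372, against 626 by DESeq2, 194 at 5 CPM and 644 without the 18S libraries. The difference between ages gave 270 genes in cardiomyocytes, against 639 by DESeq2 and 170 with the block, and 850 in endothelial cells, against 1392 by DESeq2. Depth limits Adamts4, Adamts8 and Adamts12 in P56 sham cardiomyocytes, where the lowest values were 3, 12 and 9 reads. In P56 sham leukocytes the lowest values were 26, 19 and 62 reads. Over all libraries 1 read is 0.0340 to 0.136 CPM.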

Other observations

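After adult MI, the library labelled replicate 2 held the lowest value for 6 of 9 members in cardiomyocytes and 5 in endothelial cells. In fibroblasts replicate 2 was lowest for 4 members and replicate 1 for 3. In leukocytes replicate 4 was lowest for 5 members and replicate 2 for 3. How often replicate 2 was lowest over all genes was not counted. For Adamts4 replicate 2 held 4.92 CPM in cardiomyocytes, 41.7 in fibroblasts and 24.6 in endothelial cells, the lowest of the 4 P56 MI libraries in each. In leukocytes it held 6.55 CPM, and replicate 3 was lowest. Adamts5 and Adamts15 in fibroblasts were instead highest in replicate 2, at 567 and 197 CPM. The labels tie the same numbers across populations to no shared heart. Same-numbered P56 libraries did deviate together in most pairs of populations, so these counts are not separate repeats. The cause of the pattern was not tested.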
